A study of Mus musculus with 9 samples.

Results

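The insulin-like growth factor (IGF) axis was described through 10 genes: the ligands Igf1 and Igf2, the receptors Igf1r and Igf2r, and the binding proteins Igfbp2, Igfbp3, Igfbp4, Igfbp5, Igfbp6 and Igfbp7. They were chosen by name, as all probes that carry one of these 10 gene names out of 28894 gene names on the array. This gave 23 of 45281 probes. Of these, 16 probes of 9 genes were tested, because they were detected on at least 3 of the 9 arrays. Igf1 had 3 probes and none of them was tested.

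IGF1 and IGF2 are secreted growth factors that bind IGF1R, a receptor tyrosine kinase that signals through insulin receptor substrates to PI3-kinase and Akt. IGF2R, which is also the mannose 6-phosphate receptor, has no kinase and takes IGF2 into the cell for breakdown. The IGF binding proteins hold the ligands outside the cell, and proteases such as PAPP-A cut them and set the ligands free. In the mammary gland, IGF1 made under growth hormone drives growth of the ducts, and IGFBP5 is known for its rise when the gland regresses after lactation.

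Expression was measured on Illumina mouse BeadChips in cells that were sorted from mammary glands of virgin C57BL/6 mice at 10 weeks of age. Every mouse carried Lgr5-GFP-IRES-CreERT2, an allele through which the promoter of Lgr5 drives a green fluorescent protein and an inducible Cre recombinase, and no treatment is given in the labels. Basal cells sorted as Lgr5+ (Lgr5+ basal), basal cells sorted as Lgr5- (Lgr5- basal) and luminal cells made up 3 groups of 3 arrays, 1 from each of 3 numbered pools. Basal cells form the outer, contractile layer of the gland and luminal cells line its lumen. The luminal samples carry the same genotype, and their label for Lgr5 expression reads wild-type. How the cells were gated, and how many mice went into a pool, the sources used here do not give.

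The 9 arrays had mean raw intensities of 428.1 to 654.4 and detected between 33.65% and 38.48% of their probes. Lgr5, the gene of the sort, had a mean log2 intensity of 10.09 in Lgr5+ basal cells and 8.44 in Lgr5- basal cells (adjusted p = 0.0246), and was detected on no luminal array. On the 3 Lgr5- basal arrays it was detected as well, at 8.24, 8.14 and 8.94 and at least 7.53-fold above luminal cells. The call between the basal groups was lost when Lgr5+ or Lgr5- basal replicate 1 or 2 was left out (adjusted p = 0.0541 to 0.126). It was also lost with no detection filter (adjusted p = 0.0715) and with only the 2 basal groups in the fit (adjusted p = 0.0769). Of the 10 basal markers, Krt14 had the highest mean over the 9 arrays in linear units of the normalized values. In these units the 10 markers summed to 108488 to 125257 on the basal arrays. On the luminal arrays they summed to 3213, 21350 and 2997 in replicates 1, 2 and 3, so luminal replicate 2 stood apart. The 14 luminal markers, led by Krt8, summed to 113279 to 126621 in luminal cells and to 12009 to 15231 in basal cells. The 10 endothelial markers summed to 6462 on Lgr5+ basal replicate 2 and to 951 to 4085 on the other 8 arrays, so this array stood apart as well. Ptprc of blood cells, Kdr of endothelium, Fabp4 of fat cells and Dpep1 of fibroblasts were detected on no array, each on a brightest probe that the authors had set aside. Other markers of these lists were detected on all 9 arrays: Cd74 of blood cells, Pecam1, Emcn and Esam of endothelium, Lpl of fat cells and Dcn of fibroblasts. In sorted bulk samples, fewer cells of a type and less RNA per cell cannot be told apart.

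The promoters of 4 members are shown because the differences turn on these genes: Igfbp2 differed between the basal groups, Igfbp4 was lower in the same direction on every pool without passing the test, Igfbp3 had the largest fitted differences from luminal cells, and Igf2r ran against the other members. They are RefSeq sequences of build GRCm38.p6, 5′ to 3′ on the strand of the gene, from 250 bases before the start of the gene to 50 after it. Capitals mark the GC box (GGGCGG), the TATA box (TATAAA), the CCAAT box (CCAAT) and the E2 box (CAGGTG), each searched on both strands.
Igfbp2, first of 2 starts, chr1:72824230-72824529, + strand: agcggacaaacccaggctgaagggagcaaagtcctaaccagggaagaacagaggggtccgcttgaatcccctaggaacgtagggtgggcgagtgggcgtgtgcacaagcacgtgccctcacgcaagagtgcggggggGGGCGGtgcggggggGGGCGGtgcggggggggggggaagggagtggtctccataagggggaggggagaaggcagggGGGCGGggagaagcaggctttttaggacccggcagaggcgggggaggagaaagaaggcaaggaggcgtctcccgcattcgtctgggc
Igfbp4, chr11:99040994-99041293, + strand: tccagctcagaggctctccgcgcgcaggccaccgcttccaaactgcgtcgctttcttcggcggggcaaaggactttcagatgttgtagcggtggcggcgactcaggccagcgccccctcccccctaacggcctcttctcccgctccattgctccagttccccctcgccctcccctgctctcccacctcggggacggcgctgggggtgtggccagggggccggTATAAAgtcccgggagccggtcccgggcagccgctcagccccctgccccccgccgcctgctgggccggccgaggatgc
Igfbp3, chr11:7213874-7214173, - strand: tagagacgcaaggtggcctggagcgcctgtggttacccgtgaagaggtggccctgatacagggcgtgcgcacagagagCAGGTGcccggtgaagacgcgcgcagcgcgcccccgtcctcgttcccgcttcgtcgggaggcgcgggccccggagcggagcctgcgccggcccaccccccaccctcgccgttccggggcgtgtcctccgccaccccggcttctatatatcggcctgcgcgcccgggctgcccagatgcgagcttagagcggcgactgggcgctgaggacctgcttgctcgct
Igf2r, chr17:12769657-12769956, - strand: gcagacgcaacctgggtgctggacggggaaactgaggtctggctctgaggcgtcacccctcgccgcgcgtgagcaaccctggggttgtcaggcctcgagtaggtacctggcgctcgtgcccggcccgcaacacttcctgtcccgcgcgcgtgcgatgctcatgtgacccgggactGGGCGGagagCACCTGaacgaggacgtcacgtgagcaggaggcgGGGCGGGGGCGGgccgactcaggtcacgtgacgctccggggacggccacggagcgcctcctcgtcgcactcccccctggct
The Igfbp2 promoter at the first start holds 3 GC boxes, and the one at its second start, not shown, 0 GC boxes and 1 E2 box. The Igfbp4 promoter holds 1 TATA box, the Igfbp3 promoter 1 E2 box, and the Igf2r promoter 3 GC boxes and 1 E2 box. All 10 members matched the RefSeq table, with 14 promoters in all, since Igf2 has 4 starts and Igfbp2 has 2. A GC box is in 6 of the 14 and in 35.7% of all 32851 promoters, and a TATA box is in 2 of the 14 and in 13.6% of all. A CCAAT box is in 3 of the 14 and in 37.4% of all, and an E2 box is in 3 of the 14 and in 20.2% of all. Igfbp2 and Igfbp5 are neighbours on chromosome 1 and are read towards each other.

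Comparing Lgr5+ with Lgr5- basal cells asks how the axis differs within the basal layer. Igfbp2 was the member that differed: it was lower in Lgr5+ basal cells on both of its probes. Of the 16 member probes, 0 were higher and 2 lower by the test (limma, adjusted p under 0.05 over all 17712 tested probes), against 0.965% of all tested probes called in either direction, 0.474% higher and 0.491% lower. At an unadjusted p under 0.05, 2 member probes were higher and 4 lower, beside 6.54% and 8.77% of all tested probes. The members' median log2 difference was -0.05, beside a median near 0 (-0.0003) over all tested probes. The groups did not overlap for 7 of the 16 probes, against 21.6% of all tested probes.

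Against luminal cells, most of the axis was higher in basal cells. In Lgr5+ basal cells 11 of 16 member probes were higher and 1 lower, where 48% of all tested probes were called, 22.8% higher and 25.2% lower. In Lgr5- basal cells 12 were higher and 2 lower, where 42.6% of all tested probes were called, 20.7% higher and 21.8% lower. The median log2 difference of the members was 2.31 and 2.25, beside -0.05 and -0.04 over all tested probes, and setting the Igfbp2 probes, not detected in luminal cells, to their lower bounds leaves it the same. By gene, with 1 probe each, 6 of the 9 were higher in each basal group: Igf1r, Igfbp2, Igfbp3, Igfbp4, Igfbp6 and Igfbp7. Lower were 0 in Lgr5+ and 1, Igf2r, in Lgr5- basal cells. Of all genes at 1 probe each, 24.4% were higher and 24% lower in Lgr5+ basal cells. In Lgr5- basal cells 21.6% were higher and 22.2% lower. The groups did not overlap for 13 of 16 member probes in the first comparison, against 54% of all tested probes, and for 14 of 16 in the second, against 53.9%. Both comparisons use the same 3 luminal arrays. The counts include the 2 Igfbp2 probes, which passed the detection filter through the basal arrays alone.

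**Figure D1:**
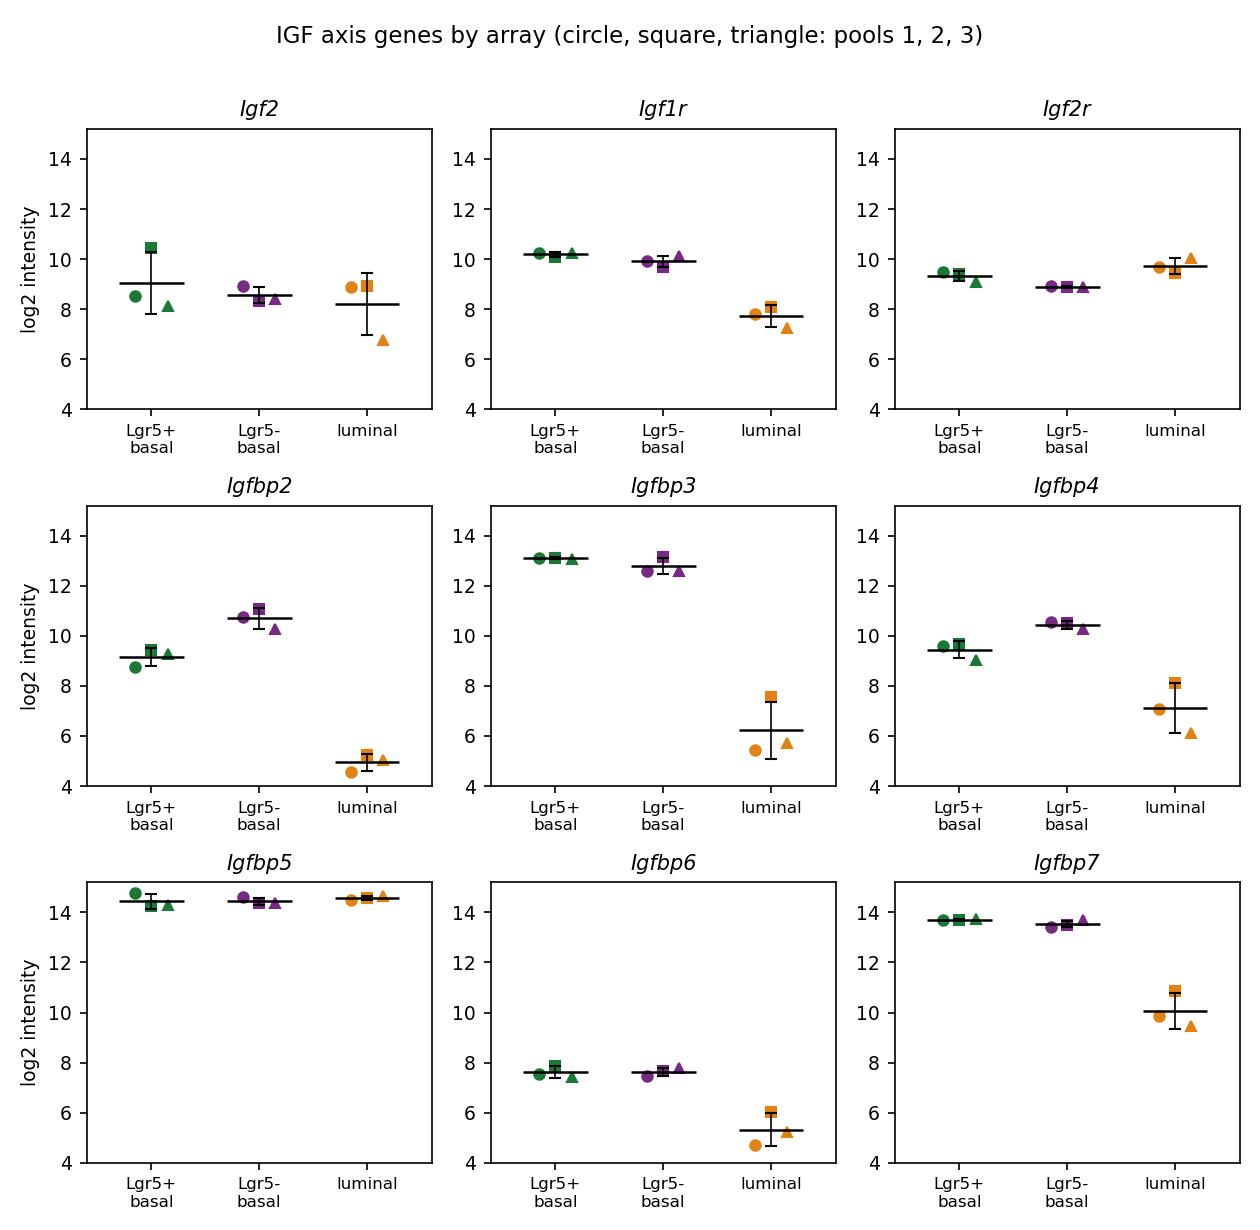
Log2 intensity (vertical axis) of the 9 tested members on each array of the 3 groups (horizontal axis), for the tested probe with the highest mean of each gene. Lines are means and bars are SD (n = 3 arrays), and circles, squares and triangles are pools 1, 2 and 3. Igfbp2 steps down from 10.70 in Lgr5- to 9.15 in Lgr5+ basal cells and is not detected in luminal cells, whereas Igfbp5 lies between 14.26 and 14.76 on all 9 arrays.

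The ligands came first. Igf1, the main growth factor made under growth hormone, was not measurable here: each of its 3 probes was detected on at most 1 array, with values of 4.38 to 5.67. Igf2, the fetal growth factor made from the paternal chromosome, was detected on all 9 arrays. It read 8.55, 10.45 and 8.14 on Lgr5+ basal replicates 1, 2 and 3, 8.94, 8.34 and 8.42 on the Lgr5- basal arrays, and 8.89, 8.94 and 6.78 on the luminal arrays.

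The 3 groups overlapped for Igf2, with 1 high array among the Lgr5+ basal samples and 1 low array among the luminal ones. The log2 difference between the basal groups was 0.48 (SE 0.642, adjusted p = 0.795), and by pool it was -0.39, 2.11 and -0.28. Without Lgr5+ basal replicate 2 it was -0.22 (adjusted p = 0.925). On that array the endothelial markers were also highest, with a median of 8.48 over the 10 genes against 6.02 to 7.63 on the other arrays. The medians of the fibroblast (7.25), blood cell (6.15), fat cell (6.70) and red blood cell markers (8.54) were highest there as well. Those of the pericyte and Schwann cell markers were highest on other arrays. By summed level, the endothelial and fat cell markers were highest on this array, and the other lists were not. Fibroblast markers summed to 6672 there, against 11652 to 12491 on the Lgr5- basal arrays. Blood cell markers summed to 1232, against 1522 on Lgr5- basal replicate 1, and red blood cell markers to 892, against 1388 on luminal replicate 2. The part of these cell types in the Igf2 value was not tested. Against luminal cells Igf2 differed by 0.84 in Lgr5+ (adjusted p = 0.307) and 0.36 in Lgr5- basal cells (adjusted p = 0.696). Without luminal replicate 3 these were 0.13 (adjusted p = 0.871) and -0.35 (adjusted p = 0.651), and without Lgr5+ basal replicate 2 the first was 0.14 (adjusted p = 0.868).

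H19, the untranslated RNA made from the maternal chromosome beside Igf2, showed the luminal spread more strongly. It read 9.58, 10.34 and 6.56 on luminal replicates 1, 2 and 3, 6.25, 6.75 and 5.62 on the Lgr5+ basal arrays, and 6.42, 6.47 and 5.80 on the Lgr5- basal arrays. Luminal replicate 3 was therefore the low array for both genes. H19 was lower than in luminal cells by -2.62 in Lgr5+ (SE 0.761, adjusted p = 0.0154) and -2.60 in Lgr5- basal cells (adjusted p = 0.0178). Both calls were lost without either of the 2 high luminal arrays: without luminal replicate 2 the differences were -1.86 (adjusted p = 0.0686) and -1.84 (adjusted p = 0.0784), and without luminal replicate 1 they were -2.24 (adjusted p = 0.0619) and -2.22 (adjusted p = 0.0698). Without luminal replicate 3, the low array, they were -3.75 (adjusted p = 2.26e-05) and -3.73 (adjusted p = 2.34e-05). The call in Lgr5- basal cells was also lost without Lgr5- basal replicate 3 (-2.38, adjusted p = 0.0579). Pool 3, which holds the low luminal array, was run on another BeadChip than pools 1 and 2, and pool and BeadChip cannot be told apart for it.

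**Figure D2:**
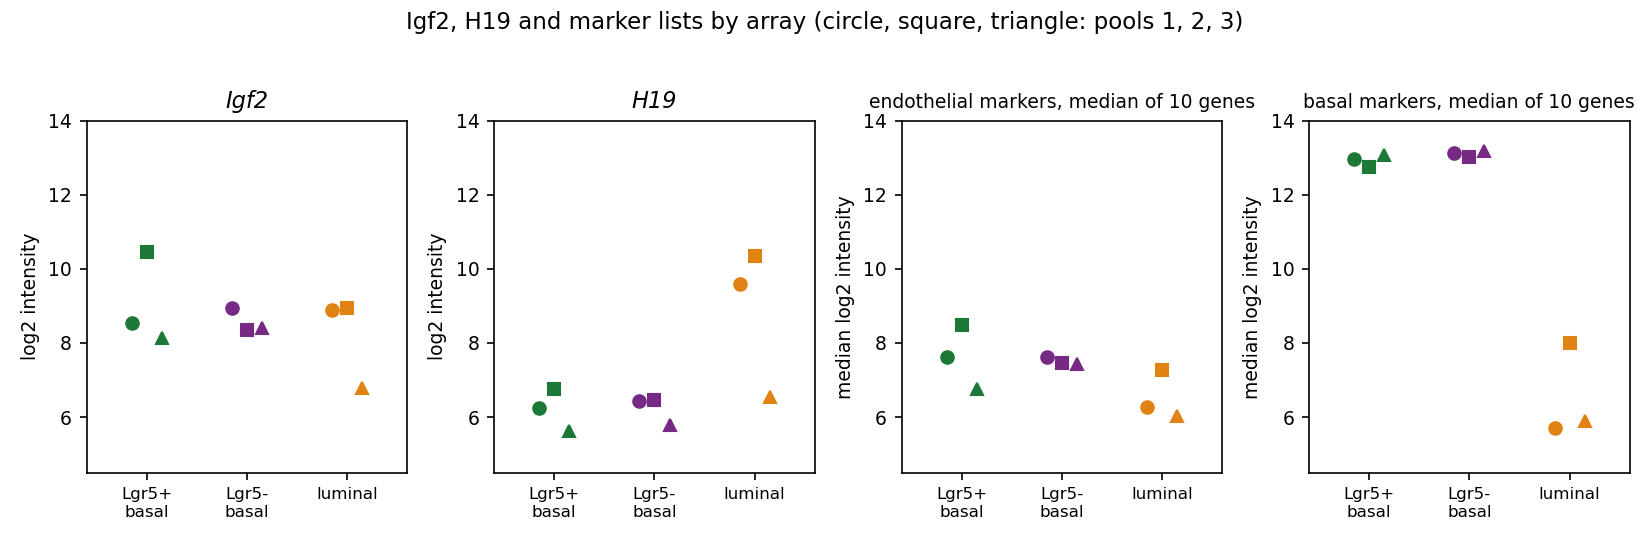
Log2 intensity of Igf2 and H19, and the median log2 intensity of the 10 endothelial and the 10 basal markers, on each array of the 3 groups, with circles, squares and triangles for pools 1, 2 and 3. Igf2 and the endothelial markers are both highest on Lgr5+ basal replicate 2 (10.45 and 8.48), Igf2 and H19 are low on luminal replicate 3 (6.78 and 6.56), and the basal markers stand higher on luminal replicate 2 than on the other luminal arrays.

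The receptors went in opposite directions between the layers. Igf1r, the signalling receptor, was higher in basal cells, and Igf2r, the clearance receptor for IGF2, was higher in luminal cells. The brighter Igf1r probe (ILMN_1249824) read 10.23, 10.09 and 10.26 in Lgr5+ basal, 9.93, 9.69 and 10.13 in Lgr5- basal and 7.81, 8.11 and 7.26 in luminal replicates 1, 2 and 3. All basal arrays lay above all luminal arrays, and the basal groups overlapped.

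Igf1r on this probe was higher than in luminal cells by 2.47 (SE 0.223, adjusted p = 5.4e-06) in Lgr5+ and by 2.19 (adjusted p = 1.35e-05) in Lgr5- basal cells, or 5.53-fold and 4.57-fold. The second probe (ILMN_1239663) gave smaller differences of 1.45 (adjusted p = 0.000939) and 1.60 (adjusted p = 0.000518). Between the basal groups Igf1r differed by 0.27 (SE 0.223, adjusted p = 0.624) and -0.14 (adjusted p = 0.863) on the 2 probes, which disagreed in sign.

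The Igf2r probe that the authors kept (ILMN_2931096) read 9.31, 9.47 and 9.41 in luminal, 8.51, 8.44 and 8.34 in Lgr5+ basal and 7.87, 7.97 and 7.96 in Lgr5- basal replicates 1, 2 and 3. No 2 groups overlapped, and the order was luminal, Lgr5+ basal, Lgr5- basal. Against luminal cells the difference was -0.97 (SE 0.148, adjusted p = 0.000291) in Lgr5+ and -1.46 (adjusted p = 1.29e-05) in Lgr5- basal cells.

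The step between the 2 basal groups, 0.49 higher in Lgr5+ cells (SE 0.148, 95% interval 0.17 to 0.82), did not pass the adjusted test (adjusted p = 0.155). It was 0.64, 0.46 and 0.38 in pools 1, 2 and 3. The other Igf2r probe (ILMN_2931095), which the authors set aside, read 9.67, 9.45 and 10.05 in luminal, 9.47, 9.41 and 9.10 in Lgr5+ basal and 8.91, 8.90 and 8.90 in Lgr5- basal cells. It followed the same order, with 0.42 between the basal groups (adjusted p = 0.322), -0.40 between Lgr5+ basal and luminal cells (adjusted p = 0.107, and -0.53 with adjusted p = 0.0423 without luminal replicate 2, -0.23 with adjusted p = 0.332 without luminal replicate 3 and -0.12 with adjusted p = 0.662 within BeadChip 1) and -0.82 between Lgr5- basal and luminal cells (adjusted p = 0.00489).

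Among the binding proteins, Igfbp2 separated all 3 groups. Its brighter probe (ILMN_2930897) read 8.75, 9.41 and 9.29 in Lgr5+ basal, 10.74, 11.08 and 10.27 in Lgr5- basal and 4.56, 5.22 and 5.05 in luminal replicates 1, 2 and 3. The second probe (ILMN_1236788) read 7.26, 8.22 and 8.39 in Lgr5+ basal, 10.49, 10.56 and 9.90 in Lgr5- basal and 4.71, 4.81 and 4.45 in luminal cells. On both probes every Lgr5- basal array lay above every Lgr5+ basal array, and no luminal array was detected.

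The log2 difference of Igfbp2 between Lgr5+ and Lgr5- basal cells was -1.54 (SE 0.265, adjusted p = 0.0246) on the brighter probe and -2.36 (SE 0.295, adjusted p = 0.00518) on the second, or 2.92-fold and 5.13-fold lower in Lgr5+ cells. By pool the brighter probe differed by -1.99, -1.67 and -0.98 and the second by -3.23, -2.34 and -1.51. These differences were larger in absolute size than those of 99.6% and 99.94% of all tested probes. Within BeadChip 1, which held pools 1 and 2, the differences were -1.83 (adjusted p = 0.0248) and -2.78 (adjusted p = 0.0101), and on BeadChip 2, with 1 array a group and no test, they were -0.98 and -1.51.

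The call on the second Igfbp2 probe was kept under all 18 alternatives, with adjusted p between 0.00307 and 0.0356. The brighter probe lost its call without Lgr5+ basal replicate 1 (adjusted p = 0.105) or 2 (adjusted p = 0.0601), without Lgr5- basal replicate 1 (adjusted p = 0.115) or 2 (adjusted p = 0.106), with only the 2 basal groups in the fit (adjusted p = 0.0592) and with no detection filter (adjusted p = 0.0638). Its difference stayed between -1.83 and -1.34 throughout.

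Against luminal cells, where Igfbp2 was not detected, the level was at least 12.3-fold and 5.40-fold higher in Lgr5+ basal cells on the 2 probes, and at least 36-fold and 27.7-fold higher in Lgr5- basal cells. These bounds set the mean of the basal group against, per luminal array, the lowest level of any detected probe. Both probes passed the detection filter through the basal arrays alone, so their calls against luminal cells add no support to these bounds.

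Among the markers of other cell types, 3 passed the test between the basal groups, beside 1.01% of all genes at 1 probe each. Tested were 9 fibroblast, 8 endothelial, 5 pericyte, 4 blood cell, 3 fat cell, 2 red blood cell and 3 Schwann cell markers. Dcn, the matrix proteoglycan decorin, was lower in Lgr5+ cells (11.78 against 13.24, adjusted p = 0.00413), and so was Cd3e of T cells (6.49 against 7.37, adjusted p = 0.0384). Cfd of fat cells was detected on all 3 Lgr5+ basal arrays against 0 of 3 Lgr5- basal arrays, and was at least 5.45-fold higher in Lgr5+ cells. Cfd passed the detection filter only because of the Lgr5+ basal arrays, so its call adds no support to this difference. Dcn was the 1 of 9 tested fibroblast markers that was called, and the median difference of the 9 was 0.10, with 6 of them positive. The sum over 10 fibroblast markers was 5921 to 6672 on the Lgr5+ basal arrays, 11652 to 12491 on the Lgr5- basal arrays and 1702 to 2254 on the luminal arrays. Dcn led this sum, and without it the sums went the other way, at 2675 to 2930 in Lgr5+ and 1967 to 2493 in Lgr5- basal cells. The part of these markers' cells in the Igfbp2 difference was not tested.

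Igfbp4, a binding protein that PAPP-A cuts, had the next largest differences between the basal groups among the members, in the same direction. Its brighter probe (ILMN_1258988) read 9.61, 9.69 and 9.05 in Lgr5+ basal, 10.55, 10.52 and 10.25 in Lgr5- basal and 7.08, 8.13 and 6.13 in luminal replicates 1, 2 and 3. Its second probe (ILMN_2694955) read 8.98, 8.77 and 8.54, then 9.67, 9.65 and 9.53, then 5.63, 6.85 and 5.50 in the same order. No 2 groups overlapped on either probe.

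The difference of Igfbp4 between Lgr5+ and Lgr5- basal cells was -0.99 (SE 0.403, 95% interval -1.88 to -0.10, adjusted p = 0.274) and -0.85 (SE 0.310, 95% interval -1.54 to -0.17, adjusted p = 0.222), and neither passed the test. The second probe passed it without background correction (-0.68, adjusted p = 0.041) and without luminal replicate 2 (-0.85, adjusted p = 0.0479). Against luminal cells Igfbp4 was higher by 2.33 (adjusted p = 0.000692) and 2.77 (adjusted p = 2.9e-05) in Lgr5+ basal cells, and by 3.33 (adjusted p = 5.36e-05) and 3.62 (adjusted p = 3.5e-06) in Lgr5- basal cells. The part of Dcn, Cd3e and Cfd, given above, in the Igfbp4 values was not tested.

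Igfbp3, the main carrier of IGFs in blood, had the largest fitted difference from luminal cells among the members and did not separate the basal groups. Igfbp2, not detected in luminal cells, has only a lower bound there. The brighter Igfbp3 probe (ILMN_1219335) read 13.12, 13.10 and 13.05 in Lgr5+ basal, 12.59, 13.15 and 12.58 in Lgr5- basal and 5.45, 7.54 and 5.71 in luminal replicates 1, 2 and 3. This Igfbp3 probe was detected on 2 of 3 luminal arrays. The difference from luminal cells was 6.86 (SE 0.442, adjusted p = 4.17e-07) in Lgr5+ and 6.54 (adjusted p = 5.62e-07) in Lgr5- basal cells. These are 116-fold and 93.1-fold, and they were larger than those of 99.95% and 99.94% of all tested probes.

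The second Igfbp3 probe (ILMN_2727503) read 10.65, 11.12 and 11.65 in Lgr5+ basal, 11.89, 11.92 and 11.24 in Lgr5- basal and 4.69, 6.53 and 4.76 in luminal cells, where it was detected on 1 of 3 arrays. It differed from luminal cells by 5.82 (adjusted p = 1.69e-06) and 6.36 (adjusted p = 8.13e-07). Between the basal groups the probes differed in sign, at 0.32 (adjusted p = 0.805) and -0.54 (adjusted p = 0.632), and the groups overlapped on both.

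Igfbp6, a binding protein that prefers IGF2, read 7.56, 7.88 and 7.42 in Lgr5+ basal, 7.46, 7.65 and 7.78 in Lgr5- basal and 4.71, 6.04 and 5.22 in luminal replicates 1, 2 and 3, with detection on 1 of 3 luminal arrays. It was higher than in luminal cells by 2.30 (SE 0.293, adjusted p = 7.8e-05) in Lgr5+ and 2.31 (adjusted p = 7.6e-05) in Lgr5- basal cells. The basal groups overlapped, with a difference of -0.01 (95% interval -0.66 to 0.63).

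Igfbp7, a secreted relative that binds IGFs only weakly, was measured by 1 of its 5 probes (ILMN_2764588). The other 4 were detected on no array, and the authors had set them aside. The measured probe read 13.69, 13.70 and 13.72 in Lgr5+ basal, 13.43, 13.50 and 13.68 in Lgr5- basal and 9.87, 10.85 and 9.46 in luminal replicates 1, 2 and 3. It was higher than in luminal cells by 3.64 (SE 0.292, adjusted p = 2.08e-06) and 3.48 (adjusted p = 3.01e-06), or 12.5-fold and 11.1-fold. Between the basal groups it differed by 0.17 (adjusted p = 0.854), although the 2 groups did not overlap.

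Luminal replicate 2 was the highest luminal array on every tested probe of Igfbp3, Igfbp4, Igfbp6 and Igfbp7, and it was also the luminal array with the most basal marker signal. The part of basal cells in these values was not tested. Without that array the differences of the brighter probes from luminal cells were larger: 7.51 and 7.20 for Igfbp3, 2.84 and 3.83 for Igfbp4, 2.65 and 2.66 for Igfbp6 and 4.04 and 3.87 for Igfbp7, each pair for Lgr5+ and then Lgr5- basal cells. All of these kept their calls. Without background correction the differences from luminal cells were smaller and kept their calls: 5.28 and 4.97 for the brighter Igfbp3 probe and 3.69 and 4.21 for the second, and 0.89 and 0.90 for Igfbp6. For Igf1r they were then 1.87 and 1.63 on the brighter probe and 0.63 and 0.72 on the second, for Igfbp2 2.06 and 3.40, then 1.31 and 3.14, and for Igfbp4 1.52 and 2.38, then 1.45 and 2.13. On each BeadChip taken alone, every member probe called against luminal cells differed in the same direction as over all arrays, and within BeadChip 1 the probes that lost a call were those of Igfbp5.

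Igfbp5, the binding protein tied to regression of the gland, was bright on every array of both layers. Its 3 probes read 13.71 to 14.81 on all 9 arrays, with raw intensities of 42.4% to 91.5% of the brightest probe of the array, so they lay near the top of the measurable range. The probe ILMN_2682613 had means of 14.43, 14.45 and 14.57 in Lgr5+ basal, Lgr5- basal and luminal cells, with differences from luminal cells of -0.13 (95% interval -0.53 to 0.27) and -0.12 (95% interval -0.52 to 0.28).

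The probe ILMN_2964324 of Igfbp5 was higher than in luminal cells by 0.56 (adjusted p = 0.0234) in Lgr5+ and by 0.66 (adjusted p = 0.0119) in Lgr5- basal cells. Its call in Lgr5+ cells was lost without luminal replicate 2 (adjusted p = 0.0656) and without Lgr5+ basal replicate 3 (adjusted p = 0.0685), and its call in Lgr5- cells without Lgr5- basal replicate 3 (adjusted p = 0.0536). The probe ILMN_1254358 differed by 0.36 (adjusted p = 0.0873) and 0.45 (adjusted p = 0.0419), and the second of these calls was lost when any 1 of 7 arrays was left out, Lgr5+ basal replicates 1 and 3 being the exceptions. Between the basal groups the 3 probes differed by -0.01 to -0.10.

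**Figure D3:**
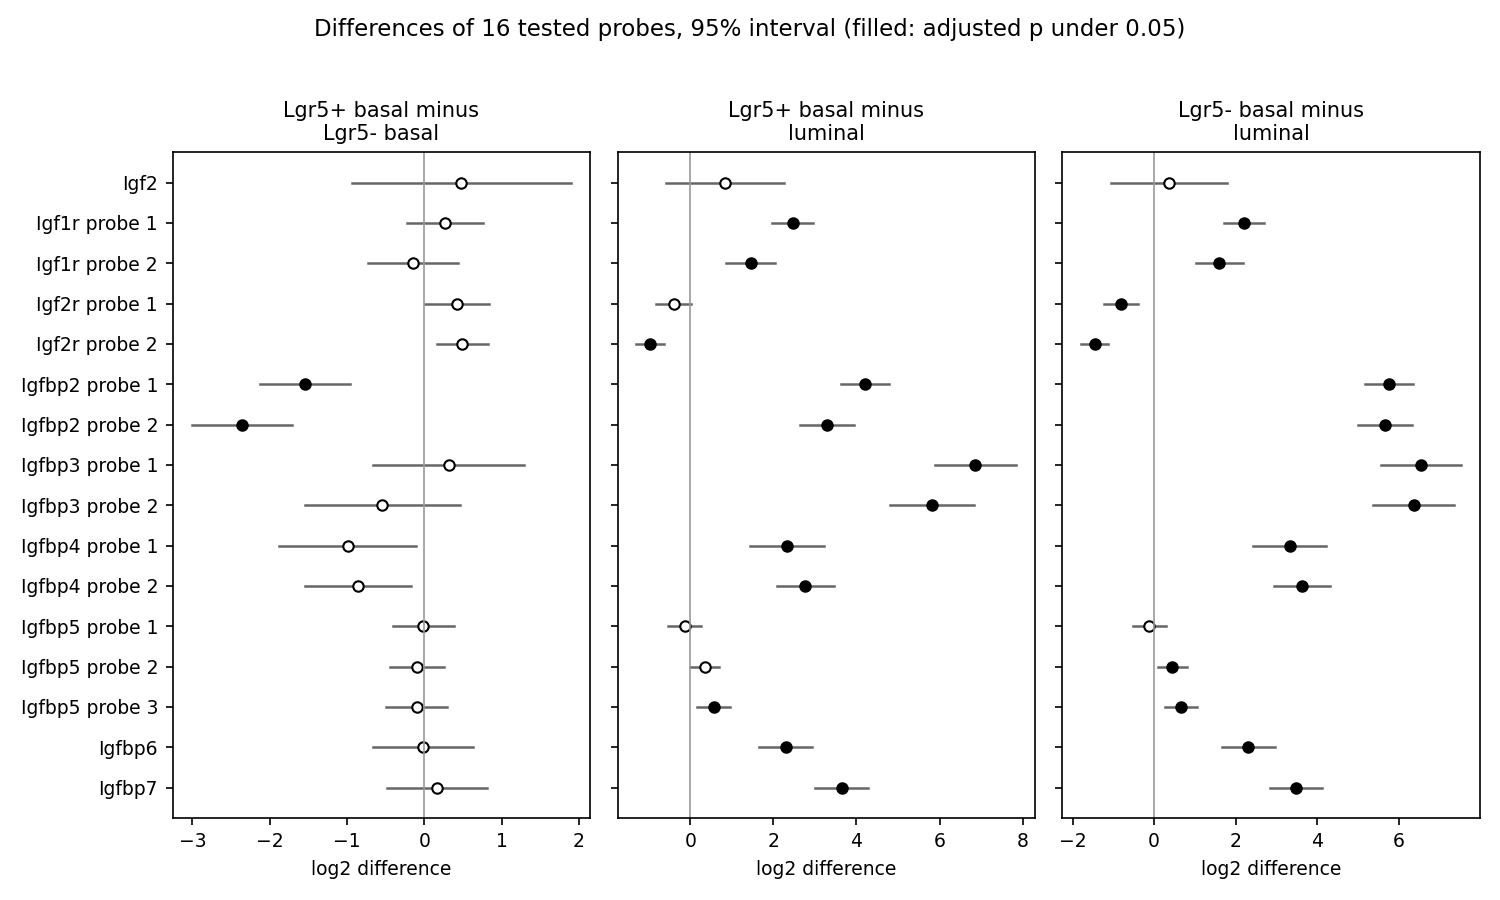
Log2 differences (horizontal axis, a scale of its own in each panel) of the 16 tested member probes in the 3 comparisons, with 95% intervals from the fit, and filled points where the adjusted p was under 0.05. Between the basal groups the filled points are the 2 probes of Igfbp2 (-1.54 and -2.36), and against luminal cells Igf2r lies on the negative side while Igfbp3 reaches 6.86 and 6.54. The Igfbp2 points against luminal cells are fitted values for a group with no detected array, not bounds.

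The genes whose pattern lay nearest to Igfbp2 over the 9 arrays were Reln, the secreted glycoprotein reelin, Serpinb11, a serpin, and Ccnd2, the cell cycle regulator cyclin D2. After each gene was centred on its own mean, their root mean square differences from Igfbp2 were 0.42, 0.43 and 0.44 on the log2 scale, the lowest of 10088 genes ranked. Their own differences between the basal groups, -0.996, -0.925 and -1.31, did not pass the test (adjusted p = 0.159, 0.227 and 0.0757). The genes nearest to Igfbp3 were Col17a1, a collagen of hemidesmosomes, the basal keratin Krt5 and the protease inhibitor Slpi, at 0.27, 0.29 and 0.36.

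Around the members, 49 further genes of IGF production, IGFBP cutting and receptor signalling were listed, of which 35 were tested. Between the basal groups 0 of 35 were higher and 1 was lower (limma), against 1.01% of all genes at 1 probe each (0.494% higher and 0.519% lower), and at an unadjusted p under 0.05 3 were higher and 3 lower, beside 6.84% and 6.75% of all genes. Against luminal cells 12 were higher and 10 lower in Lgr5+ basal cells, and 13 higher and 9 lower in Lgr5- basal cells. Of all genes at 1 probe each, 48.4% were called in the first comparison (24.4% higher and 24% lower) and 43.8% in the second (21.6% higher and 22.2% lower). The median log2 difference of the 35 genes was -0.12 and -0.15.

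The gene called between the basal groups was Htra1, a secreted serine protease that cuts IGFBP5. It read 8.67, 8.83 and 8.89 in Lgr5+ basal, 10.57, 10.19 and 9.97 in Lgr5- basal and 6.51, 6.52 and 6.01 in luminal replicates 1, 2 and 3, with no overlap between any 2 groups. It was lower in Lgr5+ than in Lgr5- basal cells by -1.44 (SE 0.208, adjusted p = 0.0107), a call that was lost without Lgr5+ basal replicate 1 (adjusted p = 0.0541) and without Lgr5- basal replicate 1 (adjusted p = 0.0567). Against luminal cells it was higher by 2.45 (adjusted p = 3.24e-06) in Lgr5+ and 3.89 (adjusted p = 1.26e-07) in Lgr5- basal cells. Its order, with Lgr5- basal cells highest and luminal cells lowest, was that of Igfbp2 and of Igfbp4, which did not pass the test between the basal groups. Dcn, outside the axis, had this order too (means of 13.24 in Lgr5- basal, 11.78 in Lgr5+ basal and 10.59 in luminal cells). The part of Dcn, Cd3e and Cfd, given above, in the Htra1 values was not tested.

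The other proteases and their inhibitors split by layer. Of 5 tested genes of this list, Htra1 among them, 3 were higher and 2 lower in each basal group than in luminal cells. Of all genes, 24.4% were higher and 24% lower in Lgr5+ basal cells, and 21.6% higher and 22.2% lower in Lgr5- basal cells. Pappa, the protease PAPP-A that cuts IGFBP4, was detected on all basal arrays and on no luminal array. It was at least 6.31-fold higher in Lgr5+ and at least 9.28-fold higher in Lgr5- basal cells. Pappa passed the detection filter through the basal arrays alone, so its calls, counted above, add no support to these bounds. Its inhibitors were higher in luminal cells. Stc2, stanniocalcin 2, read 11.64, 11.93 and 11.66 in luminal cells against 6.63 to 7.12 on the basal arrays, a difference of -4.86 (SE 0.179, adjusted p = 2.19e-08) and -4.81 (adjusted p = 2.54e-08). Stc1, stanniocalcin 1, differed by -2.05 (adjusted p = 0.000259) and -1.76 (adjusted p = 0.000818). It was detected on 1 of 3 Lgr5+ basal arrays. Under the alternatives its differences were as small as -0.81 and -0.74, with the calls kept.

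Of the genes on the side of growth hormone, 3 of 4 were tested. Ghr, the growth hormone receptor, was higher in basal cells by 1.09 (adjusted p = 0.000638) and 1.10 (adjusted p = 0.000647), and Stat5a, which relays growth hormone and prolactin signals and whose probe the authors had set aside, was lower by -2.01 (adjusted p = 4.07e-05) and -1.51 (adjusted p = 0.000357). Socs2, a feedback inhibitor of growth hormone signalling, was higher by 0.85 (adjusted p = 0.00392) and 0.55 (adjusted p = 0.0388). The second Socs2 call was lost without any single Lgr5- basal array, without Lgr5+ basal replicate 2 and without luminal replicate 2 or 3, with adjusted p up to 0.135.

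Lower in Lgr5+ and Lgr5- basal than in luminal cells were 24% and 22.2% of all genes. Of the 7 other binding, cofactor and mRNA-binding genes, 3 were tested and all 3 were lower in basal cells. Besides H19 these were Igfals, the acid-labile subunit that joins IGF and IGFBP3 in blood, at -2.27 (adjusted p = 9.82e-06) and -2.85 (adjusted p = 1.59e-06), and Igf2bp2, a protein that binds Igf2 mRNA, at -2.76 (adjusted p = 4.67e-05) and -2.93 (adjusted p = 2.91e-05). Igf2bp2 was detected on 2 of 3 arrays in each basal group. Without background correction it read -1.41 and -1.47, with both calls kept. Igfbp1, Igfbpl1, Igf2bp1 and Igf2bp3 passed detection on too few arrays for a test.

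Of 6 tested adaptor and insulin receptor genes below the receptor, 1 was higher and 2 lower in each basal group than in luminal cells, near the 48.4% and 43.8% of all genes called. Irs2, an adaptor of both receptors, was higher by 1.95 (adjusted p = 0.00151) and 2.00 (adjusted p = 0.00136), whereas Irs1 was lower by -0.63 (adjusted p = 0.0355) and -0.73 (adjusted p = 0.0198). The Irs1 calls depended on single arrays: without luminal replicate 2 they were lost in both comparisons (adjusted p = 0.102 and 0.0636). They were also lost without Lgr5+ basal replicate 1 (0.0853) or 2 (0.128) or luminal replicate 3 (0.0707) in the first, and without Lgr5- basal replicate 1 (0.0635) or 2 (0.0866) in the second, all as adjusted p. Without background correction Irs1 read -0.16 (adjusted p = 0.129) and -0.19 (adjusted p = 0.0911), and with no detection filter the first call was lost (adjusted p = 0.0630). Irs1 was detected on 1 of 3 arrays in each basal group.

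The adaptors Grb10 and Grb14, which restrain receptor signalling, passed the test against luminal cells in different basal groups. Grb14 was lower in Lgr5+ basal cells (-1.14, adjusted p = 0.00342) and read -0.04 in Lgr5- basal cells (adjusted p = 0.927). Grb10 read -0.49 in Lgr5+ (adjusted p = 0.115, and -0.75 with adjusted p = 0.0187 without Lgr5+ basal replicate 2) and was lower in Lgr5- basal cells (-1.34, adjusted p = 0.000946). Compared directly, the basal groups differed by -1.11 for Grb14 (adjusted p = 0.0788) and 0.85 for Grb10 (adjusted p = 0.135), which did not pass the test. The Grb14 difference passed it without Lgr5+ basal replicate 3 (adjusted p = 0.0494) and without luminal replicate 3 (adjusted p = 0.0208), with BeadChip as a block (0.0399), within BeadChip 1 (0.0408) and with only the 2 basal groups in the fit (0.0405).

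In the PI3-kinase, Akt and mTOR relay, 18 of 22 genes were tested. In Lgr5+ basal cells 6 were higher and 2 lower than in luminal cells, where 48.4% of all genes were called (24.4% higher and 24% lower). In Lgr5- basal cells 7 were higher and 1 lower, where 43.8% of all genes were called (21.6% higher and 22.2% lower). The median log2 difference of the 18 genes was 0.03 and -0.07, beside -0.05 and -0.04 over all tested probes. A shift of the list as a whole was not tested. Pik3r1, the main regulatory subunit of PI3-kinase, was higher by 1.65 (adjusted p = 0.00105) and 1.39 (adjusted p = 0.00341), and Pik3r2 by 0.80 (adjusted p = 0.00319) and 0.90 (adjusted p = 0.00159). The catalytic subunit Pik3cb was lower by -1.04 (adjusted p = 0.00291) and -1.23 (adjusted p = 0.00102). Foxo1, a transcription factor that Akt holds out of the nucleus, was higher by 1.06 (adjusted p = 0.00506) and 1.13 (adjusted p = 0.00382).

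**Figure D4:**
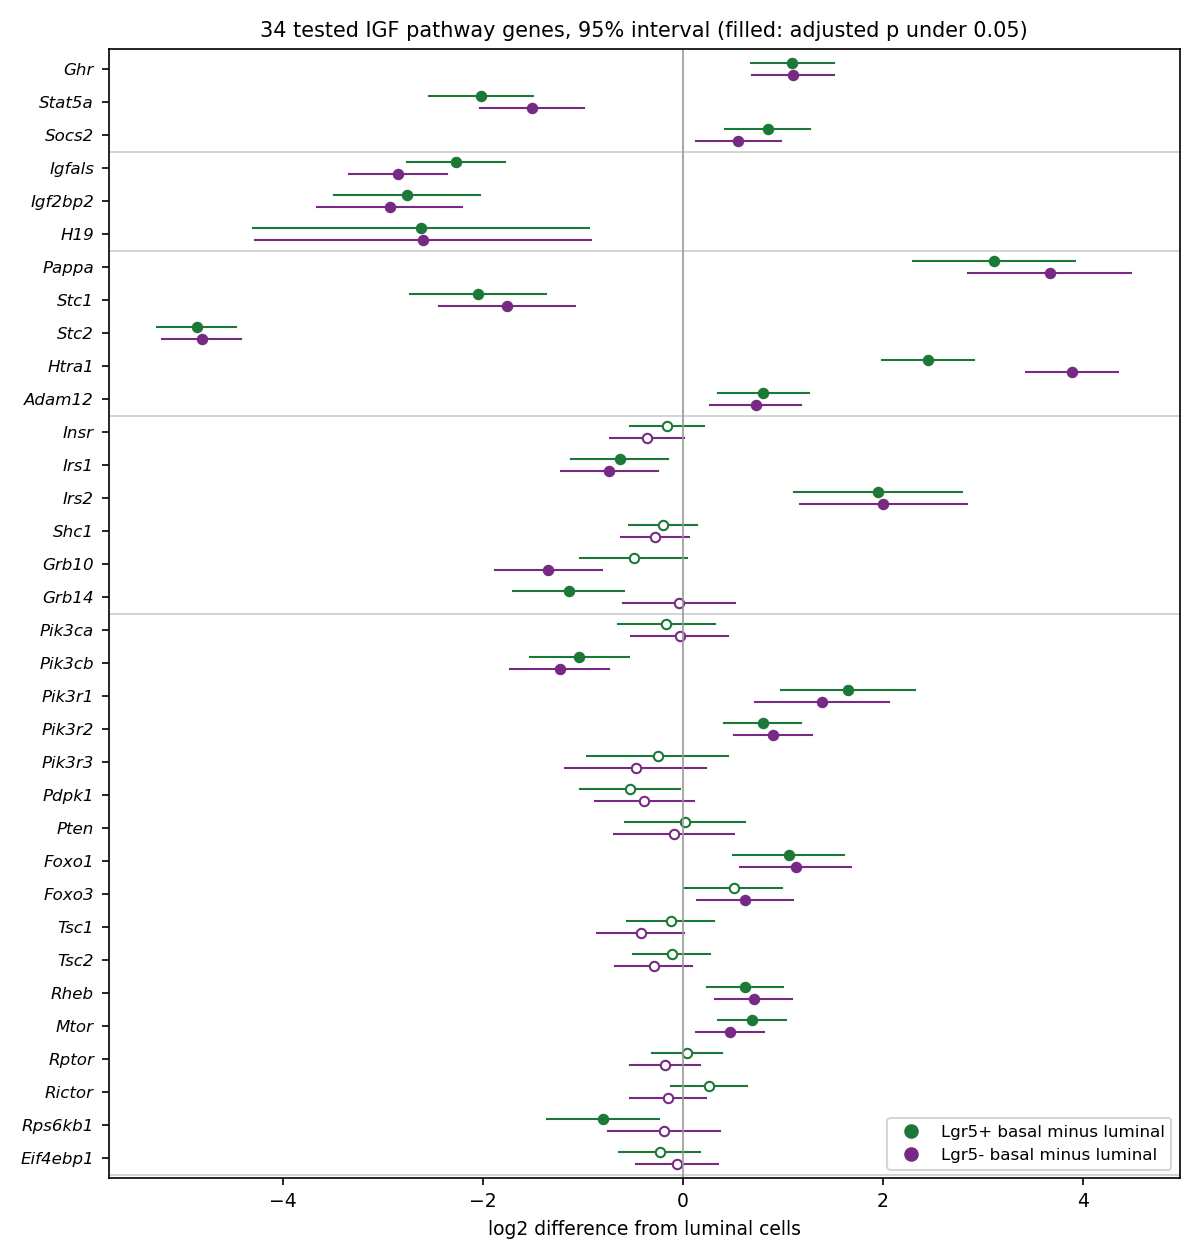
Log2 difference from luminal cells (horizontal axis) of 34 of the 35 tested genes around the members, in Lgr5+ basal (green) and Lgr5- basal cells (purple), with 95% intervals from the fit and filled points where the adjusted p was under 0.05. Grey lines part the 5 gene lists. Stc2 lies at -4.86 and -4.81, Htra1 at 2.45 and 3.89, and Grb10 and Grb14 are the genes of the adaptor list with a filled point in 1 basal group only.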

How the data were processed

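Total RNA of 9 sorted samples was extracted with the RNeasy micro kit, and up to 125 ng was labelled with biotin (Ambion MessageAmp kit) and hybridized to Illumina MouseWG-6 v2.0 BeadChips, per the labels. GenomeStudio and limma are named in the submitters' processing notes, while their versions, the background correction and a genome build were not given in the sources used. The deposited raw table holds a linear intensity per probe and array, neither corrected nor normalized, and a flag for probes set aside, per the file headers for lack of expression or poor annotation. Its detection columns, a p-value per the file headers, hold a fraction that rose with the intensity on every array, so a probe was called detected above 0.99. The second deposited table holds the authors' normalized log2 values, which were used here. They differed by at most 0.0426 from the raw intensities after normexp correction (offset 16) and quantile normalization.

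Probes detected on at least 3 of 9 arrays were tested, 17712 of 45281, and 1235 of these had been set aside by the authors. Groups were compared with limma 3.58.1 (R 4.3.3, Python 3.11.15) in 1 fit of all 9 arrays on group alone (lmFit and eBayes, degrees of freedom: 6 residual, 4.669 prior), and p-values were two-sided, adjusted by Benjamini-Hochberg over all tested probes and called under 0.05. Intervals are 95% intervals of that fit. The number of arrays, 3 a group, limits the precision. Nothing says how the pools were made, so p-values measure the spread between these samples. On simulated data for Lgr5+ against Lgr5- basal cells (17712 probes), log2 changes of 0.5, 1, 2 and 4 were recovered in 2%, 40%, 94% and 100% of 50 probes each, with 9 false among 127 calls.

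Probes were named through RefSeq symbols (27400) or synonyms (8300), and 9581 kept the name of the table. A gene outside the members is given by its tested probe with the highest mean. Named were all members, list genes called between the basal groups, up to 4 called genes of a list with the smallest p against luminal cells, and the 3 genes nearest in pattern to Igfbp2 and Igfbp3. The values of 1 pathway gene are not reported here, and the counts include it. The members and lists were chosen with earlier results of these data known. After removal of group means, the correlation r over probes between same-numbered pools was 0.275, 0.231 and 0.403 for the Lgr5+ and Lgr5- basal groups, and for Lgr5- basal and luminal arrays 0.302, 0.111 and 0.367, so the pool number was taken to pair these samples. For Lgr5+ basal and luminal arrays r was 0.0969, 0.0829 and 0.109. Between differently numbered pools, r was -0.294 to 0.0222 for Lgr5+ and Lgr5- basal arrays. It was -0.287 to 0.0423 for Lgr5- basal and luminal arrays. The main fit, on group alone, did not use the pairing. Pools 1 and 2 shared BeadChip 1, and pool 3 was on BeadChip 2. Alternatives were a pool or BeadChip block, BeadChip 1 alone, own normalization, no background correction, median centring, other detection filters, 2 groups in the fit, 1 probe a gene, and each array left out.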

Additional observations from a re-analysis of the deposited data

How the results depend on the processing

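Over the 48 member differences (16 probes in 3 comparisons), 891 values were recomputed under alternatives: 852 kept their direction and side of the threshold, 23 lost a call, 4 gained one, 12 changed sign without a call, and 0 calls reversed. Between Lgr5+ and Lgr5- basal cells, 171 probes were called. This became 917 within BeadChip 1 (36.2% of them higher in Lgr5+ cells, against 49.1%), 92 with only the 2 groups in the fit, and 48 (without Lgr5- basal replicate 1) to 1292 (without Lgr5+ basal replicate 3) with 1 array left out. Of 2 member probes called, 1 remained with no detection filter and with only the 2 groups, and 1 to 3 were called with 1 array left out. Of the pathway genes, 1 was called, 2 with BeadChip as a block, within BeadChip 1 or with only the 2 groups, and 0 to 3 with 1 array left out. With pool as a replicate block 183 probes were called, 138 of them shared, and both Igfbp2 calls were kept (adjusted p = 0.0200 and 0.0155), and this pairing changed no member call in the 3 comparisons. With 1 probe a gene, which leaves 9 member probes, the member calls went from 2 to 1 between the basal groups and from 12 to 6 and from 14 to 7 against luminal cells; the other counts against luminal cells stayed within 1.5 times their values. The cause of these changes was not tested. Igfbp5, near the top of the range, and Igf1, at background, are limited by signal.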
